A study of Mus musculus with 16 samples.

Results

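The 4 tropomyosin genes (Tpm1, Tpm2, Tpm3 and Tpm4), the calponin genes Cnn2 and Cnn3, the calponin relative Tagln2 and the caldesmon gene Cald1 encode proteins that lie along the sides of actin filaments. These 8 genes were taken by symbol from each of 3 gene tables, which held 23083 genes for mouse embryonic stem cells (ESCs), 21615 for mouse embryonic fibroblasts (MEFs) and 18288 for mouse kidney fibroblasts (MKFs). All 8 were found in all 3 tables and all 8 passed the filter on low values, a mean of at least 1. The data were RNA sequencing libraries, 2 in each of 8 groups and 16 in all. The ESC groups were a knockout of Actb (KO), a deletion of the whole Actb locus (LD) and wild type (WT). The MEF groups were an Actg1 KO, an Actg1 locus deletion (LD) and WT, and the MKF groups were a Kindlin-2 KO and cells carrying the floxed Kindlin-2 gene. Actb and Actg1 encode the cytoplasmic beta- and gamma-actins, and Kindlin-2, encoded by Fermt2, is an activator of integrins at cell adhesions. The series asked whether a mutant gene changes the expression of related genes, and a locus deletion removes the gene that would give rise to a mutant transcript. The labels give neither the sequence change in a KO, nor the number of clones behind a group, nor whether 2 libraries of a group came from separate cultures. The p-values therefore rest on how far the libraries of a group lie apart, a spread that may be only technical.

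Tropomyosins are coiled-coil dimers that polymerise head to tail along actin filaments and decide which myosins and severing proteins reach the filament. Each of the 4 genes yields several isoforms through alternative promoters and splicing, and gene-level values do not separate these. Calponins and caldesmon bind actin together with tropomyosin and restrain the actomyosin ATPase, and transgelins are small calponin relatives that bundle filaments. Many genes of this group are textbook targets of the serum response factor (SRF), whose coactivators of the MRTF family are held back by free actin monomer and bind DNA with SRF at the CArG box.

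On GRCm38 the tropomyosin genes lie at chr9:67022590-67049406 (Tpm1, minus strand), chr4:43514711-43523765 (Tpm2, minus strand), chr3:90072649-90100902 (Tpm3, plus strand) and chr8:72134975-72153142 (Tpm4, plus strand). Cnn2 lies at chr10:79988584-79996062, Cnn3 at chr3:121426497-121458207, Tagln2 at chr1:172500047-172507380 and Cald1 at chr6:34598500-34775473, all on the plus strand. RefSeq (GRCm38.p6) gave 10 promoter windows for the 8 genes, each from 250 bases before to 50 bases after a transcription start. Of these windows, only that of Cnn2 held a CArG box on either strand, starting 56 bases upstream of the RefSeq start. Among all 32851 RefSeq promoter windows of this length, 1.63% held one. The motif GGAATG, the core of sites for TEAD factors, was found on either strand in the windows of Tpm1 (1 match), Tagln2 (2 matches) and Cald1 (1 match, in the window of its upstream start), against 14.7% of all windows. No match in a window says only that these letters are absent there. The sequences are the parts of the windows outside annotated exons for the 4 genes that rose in both Actb mutants, because these moved together. They read 5′ to 3′ on the strand of the gene, and the capitals mark the CArG box. They come from chr10:79988350-79988583 (Cnn2, plus strand), chr9:67049407-67049463 (Tpm1, minus strand), chr4:43523596-43523700 (Tpm2, minus strand) and chr8:72135050-72135258 (Tpm4, plus strand).
Cnn2: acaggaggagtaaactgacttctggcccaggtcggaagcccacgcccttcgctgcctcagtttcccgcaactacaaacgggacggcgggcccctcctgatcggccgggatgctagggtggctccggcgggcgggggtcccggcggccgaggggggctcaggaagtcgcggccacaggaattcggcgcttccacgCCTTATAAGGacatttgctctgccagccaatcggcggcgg
Tpm1: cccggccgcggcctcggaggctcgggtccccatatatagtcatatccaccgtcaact
Tpm2: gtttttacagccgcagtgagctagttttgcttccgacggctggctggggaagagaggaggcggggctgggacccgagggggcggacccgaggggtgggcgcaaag
Tpm4: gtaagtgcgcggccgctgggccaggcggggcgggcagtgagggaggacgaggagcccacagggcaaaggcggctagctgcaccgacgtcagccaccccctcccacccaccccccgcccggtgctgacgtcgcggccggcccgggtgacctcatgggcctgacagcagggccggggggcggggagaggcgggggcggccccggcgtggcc

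Summing all genes, an ESC library held 16022043 to 16529089, a MEF library 20305511 to 22094490 and an MKF library 15565648 to 16324223. Values are normalised read counts, meaning gene read counts that the authors divided by a factor for each library. The targeted genes were lower in every mutant library than in its controls, though not absent. Actb had 23650 and 22707 in Actb KO ESCs, 2372 and 2336 in Actb LD ESCs, and 36364 and 34140 in WT ESCs, so that the mean of the locus deletion was still 0.0668 of the WT mean and that of the KO 0.658. Actg1 had 1004 and 1026 in Actg1 KO MEFs, 25 and 15 in Actg1 LD MEFs, and 5737 and 5672 in WT MEFs. Fermt2 had 1251 and 1240 in Kindlin-2 KO MKFs, against 3078 and 3142 in floxed MKFs. Markers of pluripotent cells summed to 38992 or more in every ESC library, and fibroblast markers to 34306 or more in every MEF library. The MKF libraries went against their label in part. The 5 fibroblast markers listed for MKFs summed to 22 to 25 in Kindlin-2 KO MKFs and to 138 to 145 in floxed MKFs. The other 4 were not listed there, and every gene listed for MKFs reached at least 5 in some library. Markers not listed for a cell type are counted below as not measured. Pax8, a transcription factor of kidney epithelium, stood at 2238 and 2219 in KO and 2044 and 2126 in floxed cells. Of the other kidney epithelium markers, Cdh16 (1510 and 1571) and Krt18 (1945 and 2082) were also present in floxed cells. Epcam (26 and 11), Cdh1 (10 and 16) and Krt8 (64 and 78) were low there.

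The control cells of the 3 tables held the 8 genes at different levels. To set them side by side, each value was divided by the gene's exon length in kilobases and by the library's summed nuclear protein-coding values over 1000000. The result is called a unit here. The exon length merges the exons of all annotated transcripts, 6485 bases for Tpm1, 2909 for Tpm2, 6085 for Tpm3 and 2203 for Tpm4. A gene with many annotated transcripts can thus be set low beside a gene with few. Because each table was normalised on its own, this scale is approximate. On this scale Tpm4 led among the tropomyosins in every cell type, at 375 ± 7.18 units in floxed MKFs, 342 ± 15.6 in WT MEFs and 67.2 ± 8.28 in WT ESCs (SD, n = 2 each, here and for the levels that follow). This lead depends on the lengths. Before division, the mean of Tpm1 exceeded that of Tpm4 in WT MEFs (27406 against 13076) and floxed MKFs (21344 against 10133). In WT ESCs Tpm3 exceeded Tpm4 (3073 against 1765.5). Per kb, Tpm4 ranked 43 of 13375 protein-coding genes in floxed MKFs and 50 of 14136 in WT MEFs. Tpm1 had 269 ± 10.3 in floxed MKFs, 243 ± 10.4 in WT MEFs and 17.5 ± 1.03 in WT ESCs. Tpm3 varied least between the cell types, with 49.7 ± 1.13 in WT MEFs, 45.2 ± 1.81 in floxed MKFs and 42.4 ± 0.891 in WT ESCs. Tpm2, prominent in muscle and fibroblasts, had 69.3 ± 3.97 in WT MEFs and only 2.17 ± 0.650 in WT ESCs and 1.05 ± 0.0754 in floxed MKFs. The kidney cells thus carried the other 3 tropomyosins above ESC levels and Tpm2 near the bottom of its range, at rank 10150 of 13375.

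Among the other genes, Cnn2, a calponin of non-muscle cells, had 104 ± 9.27 units in WT MEFs, 33.8 ± 0.932 in floxed MKFs and 9.90 ± 0.245 in WT ESCs. Tagln2 (transgelin-2) had 158 ± 3.31 in WT MEFs, 90.9 ± 1.4 in floxed MKFs and 18.4 ± 1.11 in WT ESCs. Cald1 had 85.0 ± 4.10 in WT MEFs, 80.3 ± 1.80 in floxed MKFs and 12.7 ± 0.875 in WT ESCs. Cnn3, the acidic calponin, ran the other way, with 107 ± 4.91 in WT ESCs, 80.4 ± 3.31 in floxed MKFs and 49.9 ± 1.09 in WT MEFs. For each of the 8 genes, the ranges of the 2 libraries did not overlap between any of the 3 control groups on this approximate scale. How many of all genes separate in this way was not counted, so it does not mark out the 8 genes. The ranges came closest for Cald1 in MEFs and MKFs, at 82.1 to 87.9 and 79.0 to 81.6.

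Some reads of 3 of the genes could fall on near-copies or on genes that overlap them on the other strand. Of all 50-base windows in the exons of Tpm3, 23.2% occurred also in other genes, mostly in Tpm3-rs7, a processed copy whose own value was 7 to 68 in all libraries. For Tpm4 the share was 15.7%, with 11.7% in Gm7809 and 4.13% in Gm26586. For Cnn3 it was 24.0%, with 13.8% in Gm42928 and 6.77% in Gm4815. Windows were matched on either strand, so the shares in Gm26586 and Gm42928 can come from overlap at the same locus. Tpm4 also shares 134 exon bases with the antisense gene Gm26586, which had 65 and 93 in Actb KO, 130 and 120 in Actb LD, and 35 and 47 in WT ESCs, and Cnn3 shares 538 with Gm42928 on the other strand, at 10 to 32 in all libraries. Whether reads were counted by strand is not given in the sources used here, so reads of Tpm4 and Cnn3 could not be told apart from those of their antisense partners. The partners stood far below both genes in every library. Tpm1, Tpm2, Cnn2 and Cald1 shared 0 such windows, and Tagln2 0.565%.

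**Figure D1:**
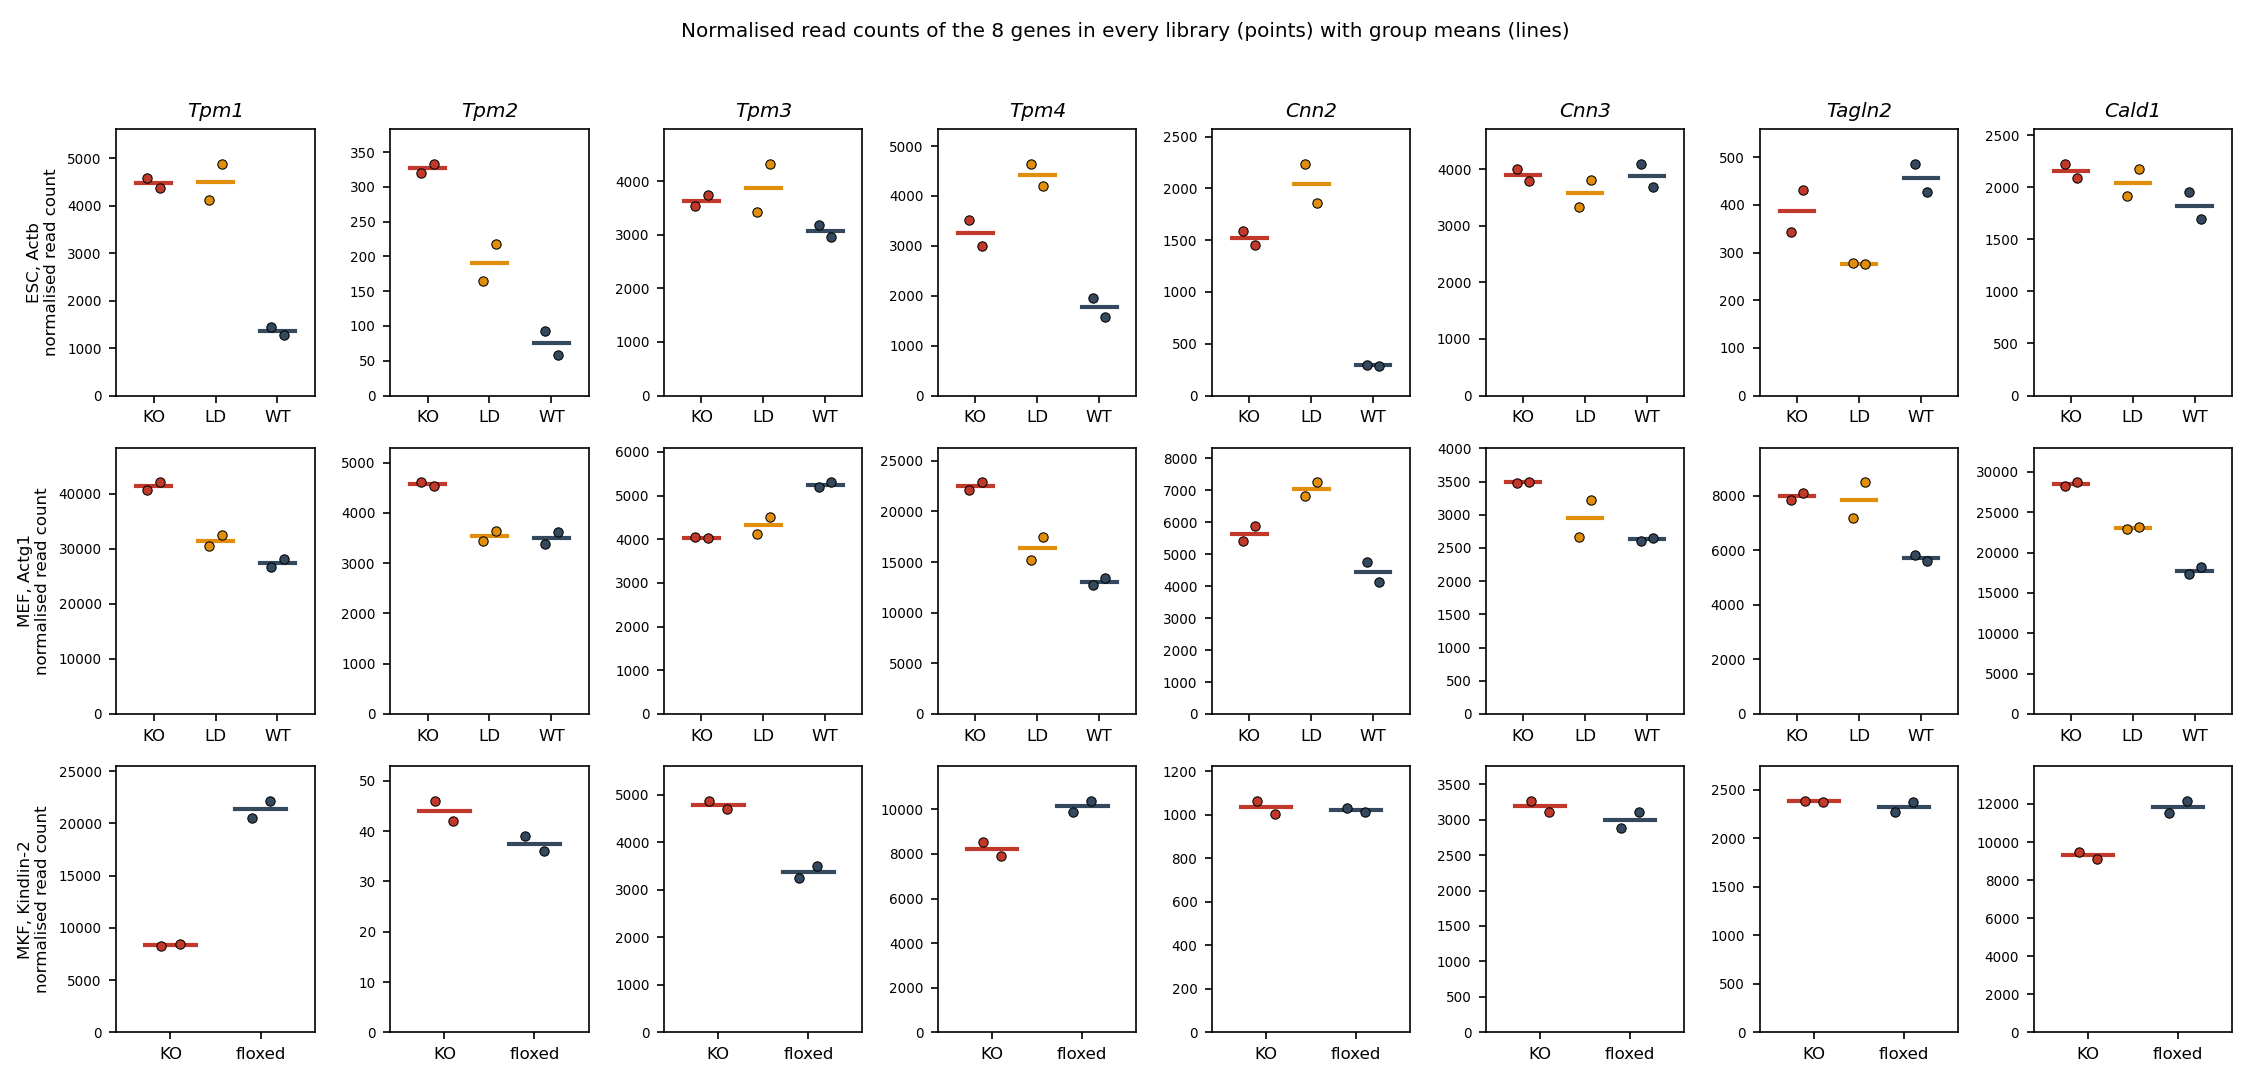
Normalised read counts (linear axes from 0, a separate scale for each panel) of the 8 genes in the 16 libraries, with KO, LD and WT or KO and floxed groups from left to right. Points are libraries and lines are means of 2. Tpm1 and Cnn2 stood far above WT in both Actb mutants, and Tpm1 stood at 8247 and 8465 in Kindlin-2 KO MKFs, against 20535 and 22152 in floxed MKFs.

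In Actb KO ESCs, Tpm1, Tpm2, Tpm4 and Cnn2 rose against WT, between 1.84-fold and 5.25-fold. Tpm3, Cnn3, Tagln2 and Cald1 did not pass the test, which was limma with Benjamini-Hochberg adjustment over all genes of the table and a threshold of 0.05. Thus 4 of the 8 genes were called higher and 0 lower by limma, and 0 were lower at an unadjusted p below 0.05. Over all 23054 genes tested, 4.88% were called in this comparison, 2.44% higher and 2.44% lower. The median log2 fold change of the 8 genes was 0.57, while that of all genes tested was 1.85e-05.

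Tpm1, which gives rise to muscle and non-muscle tropomyosins, had 4586 and 4377 normalised read counts in Actb KO ESCs, against 1435 and 1266 in WT ESCs. Both KO libraries lay far above the WT libraries, 3.32-fold by the means (log2 fold change 1.73, SE 0.117, adjusted p = 0.0002978). Tpm2 had 320 and 333 in KO ESCs, against 93 and 58 in WT ESCs. The WT libraries were further apart from each other than the KO libraries, and the groups did not overlap (log2 fold change 2.14, SE 0.238, adjusted p = 0.003225). Tpm4, a tropomyosin of stress fibres and the cell cortex, had 3513 and 2999 in KO ESCs, against 1956 and 1575 in WT ESCs. Every KO library exceeded every WT library here too (log2 fold change 0.89, SE 0.135, adjusted p = 0.01058). Tpm4 lies on chromosome 8, where the 615 genes tested had a median log2 fold change of −0.35, against −0.001 to 0.08 on the 18 other autosomes. The log2 fold change of Tpm4 was 1.23 above the median of its chromosome. Tpm3, whose products include short cytoskeletal tropomyosins, had 3534 and 3748 in KO ESCs, against 3183 and 2963 in WT ESCs. The groups were separate but close, and the log2 fold change of 0.24 did not pass (95% interval −0.04 to 0.53, adjusted p = 0.3256).

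Cnn2 showed the largest log2 fold change of the 8 genes in this comparison. It had 1591 and 1456 in Actb KO ESCs, against 291 and 289 in WT ESCs (log2 fold change 2.39, SE 0.122, adjusted p = 6.338e-05). The WT libraries were within 2 normalised read counts of each other and far below both KO libraries. Cnn3 had 3994 and 3794 in KO ESCs, against 4091 and 3677 in WT ESCs. Both KO libraries lay between the WT libraries, and the log2 fold change was 0.0053 (SE 0.109, adjusted p = 0.9886), turning to −0.054 when libraries were scaled to equal protein-coding sums. Tagln2 had 344 and 431 in KO ESCs, against 486 and 428 in WT ESCs, and the groups overlapped (log2 fold change −0.24, adjusted p = 0.4088). Cald1 had 2224 and 2086 in KO ESCs, against 1951 and 1697 in WT ESCs, with no overlap and a log2 fold change of 0.24 that did not pass (adjusted p = 0.2857). Leaving out any 1 of the 4 libraries ended the calls of Tpm1 (adjusted p 0.0763 to 0.114), Tpm2 (0.0925 to 0.185) and Tpm4 (0.132 to 0.248), and Cnn2 held only without KO replicate 2 (0.0374, against 0.0590 to 0.0730 without each other library). Without the trend in the moderation, Tpm2 (adjusted p = 0.0784) and Tpm4 (0.131) were not called, Tpm4 was not called with only the 4 libraries compared (0.0708), and with a replicate block 1850 genes were called in place of 1126, the same 4 of the 8 among them.

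In Actb LD ESCs, which share the WT libraries with the KO comparison, the same 4 genes rose and Tagln2 fell. Among all genes tested 11.2% were called, 5.19% higher and 6.0% lower, against 4 higher and 1 lower among the 8. The median log2 fold change of the 8 genes was 0.83 and that of all genes tested 0.0055. Cnn2 had 2236 and 1858 in LD ESCs, against 291 and 289 in WT ESCs, a 7.06-fold difference of means (log2 fold change 2.81, SE 0.122, adjusted p = 2.306e-05). Both LD libraries were far above WT, and they were further from each other than the KO libraries were. Tpm1 had 4126 and 4877 in LD ESCs, against 1435 and 1266 in WT ESCs (log2 fold change 1.73, SE 0.117, adjusted p = 0.0001688). Tpm4 had 4642 and 4204 in LD ESCs, against 1956 and 1575 in WT ESCs (log2 fold change 1.33, SE 0.135, adjusted p = 0.001045). The LD libraries stood above all WT libraries in each of these cases. The genes of chromosome 8 again had a low median, −0.40, against −0.05 to 0.10 on the other autosomes, and Tpm4 was 1.73 above it.

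Tpm2 had 164 and 218 in Actb LD ESCs, against 93 and 58 in WT ESCs (log2 fold change 1.35, SE 0.238, adjusted p = 0.009881). The groups were separate, and the LD libraries lay below both KO libraries. Tagln2 had 278 and 276 in LD ESCs, against 486 and 428 in WT ESCs (log2 fold change −0.72, SE 0.147, adjusted p = 0.01826). It was the only 1 of the 8 genes called lower in either Actb mutant, with LD libraries nearly equal and below both WT libraries. Tpm3 had 3423 and 4327 in LD ESCs, against 3183 and 2963 in WT ESCs (log2 fold change 0.33, adjusted p = 0.141). Cnn3 had 3329 and 3816 in LD ESCs, against 4091 and 3677 in WT ESCs (log2 fold change −0.12, adjusted p = 0.5414). Cald1 had 1915 and 2171 in LD ESCs, against 1951 and 1697 in WT ESCs (log2 fold change 0.16, adjusted p = 0.4208). The groups were separate for Tpm3 and overlapped for Cnn3 and Cald1. Tpm1 and Cnn2 were called whichever of the 4 libraries was left out. The call of Tpm4 held only without LD replicate 2 (adjusted p = 0.0442, otherwise 0.0534 to 0.0600), and those of Tpm2 (0.0648 to 0.135) and Tagln2 (0.105 to 0.145) ended without any 1 library. Tpm2 (0.0892), Tpm4 (0.0501) and Tagln2 (0.110) were not called without the trend, nor were Tpm2 (0.0702) and Tagln2 (0.0540) with only the 4 libraries compared.

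Set directly against each other, Actb KO and Actb LD ESCs gave 0 calls among the 8 genes by limma without a replicate block. Of all genes, 4.88% were called, 2.56% higher in KO and 2.32% lower in KO. An unadjusted p below 0.05 was found for 4 of the 8 genes and for 4278 of all 23054 genes tested. Tpm1 had nearly the same mean in both, 4481.5 ± 148 in KO and 4501.5 ± 531 in LD ESCs (SD, n = 2 each), with a log2 difference of −0.0018 and a 95% interval of −0.27 to 0.27. Tpm2 averaged 326.5 ± 9.19 in KO and 191 ± 38.2 in LD ESCs (log2 difference 0.78, adjusted p = 0.1137). Tpm4 averaged 3256 ± 363 in KO and 4423 ± 310 in LD ESCs (log2 difference −0.44, adjusted p = 0.1129). Cnn2 averaged 1523.5 ± 95.5 in KO and 2047 ± 267 in LD ESCs (log2 difference −0.42, adjusted p = 0.0991). Tagln2 averaged 387.5 ± 61.5 in KO and 277 ± 1.41 in LD ESCs (log2 difference 0.47, adjusted p = 0.121). The libraries of the last 4 genes, those with an unadjusted p below 0.05, were separate between the mutants, with Tpm2 and Tagln2 higher in both KO libraries and Tpm4 and Cnn2 lower in both. With a replicate block, Tpm4 (adjusted p = 0.01967) and Cnn2 (0.04273) were called lower in KO, and 1735 genes were called in place of 1125.

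Of the smooth muscle markers (Myh11, Acta2, Tagln, Cnn1, Lmod1, Smtn and Des, all 7 measured), 2 rose in Actb KO ESCs (Acta2 and Cnn1), 3 rose in Actb LD ESCs (Acta2, Lmod1 and Smtn) and 0 fell in either. Their summed value was 2273 to 2285 in Actb KO ESCs, 701 to 998 in Actb LD ESCs and 469 to 473 in WT ESCs. Most of the KO sum was Acta2, with 1565 and 1631 in KO, 109 and 134 in LD, and 2 and 9 in WT ESCs. Myh11, a defining smooth muscle myosin, stayed low, at 16 and 12 in KO, 12 and 16 in LD, and 10 and 13 in WT ESCs. Fibroblast markers, 5 of 9 measured in ESCs, summed to 132 to 142 in KO, 118 to 123 in LD and 169 to 179 in WT ESCs. Macrophage markers, 3 of 5 measured, summed to 1942 to 2038 in KO, 1276 to 1390 in LD and 970 to 1103 in WT ESCs, most of it Laptm5. Kidney epithelium markers, 5 of 6 measured, summed to 9562 to 9597 in KO, 7557 to 7710 in LD and 12379 to 12859 in WT ESCs. Most of it was Cdh1, lower in both mutants, with 8280 and 8370 in KO, 7104 and 6929 in LD, and 12186 and 11800 in WT ESCs. The keratin genes Krt8 and Krt18 of this list rose in KO and fell in LD. Krt8 had 344 and 286 in KO, 26 and 24 in LD, and 105 and 92 in WT ESCs. Krt18 had 339 and 302 in KO, 15 and 15 in LD, and 88 and 60 in WT ESCs. Endothelium markers, all 4 measured, summed to 1438 to 1502 in KO, 1170 to 1229 in LD and 1991 to 2057 in WT ESCs. Most of it was Pecam1, lower in both mutants, while Kdr was higher in both. The part of these markers in the results was not tested, and in bulk samples a change in the number of cells of a type cannot be told apart from a change of RNA per cell.

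**Figure D2:**
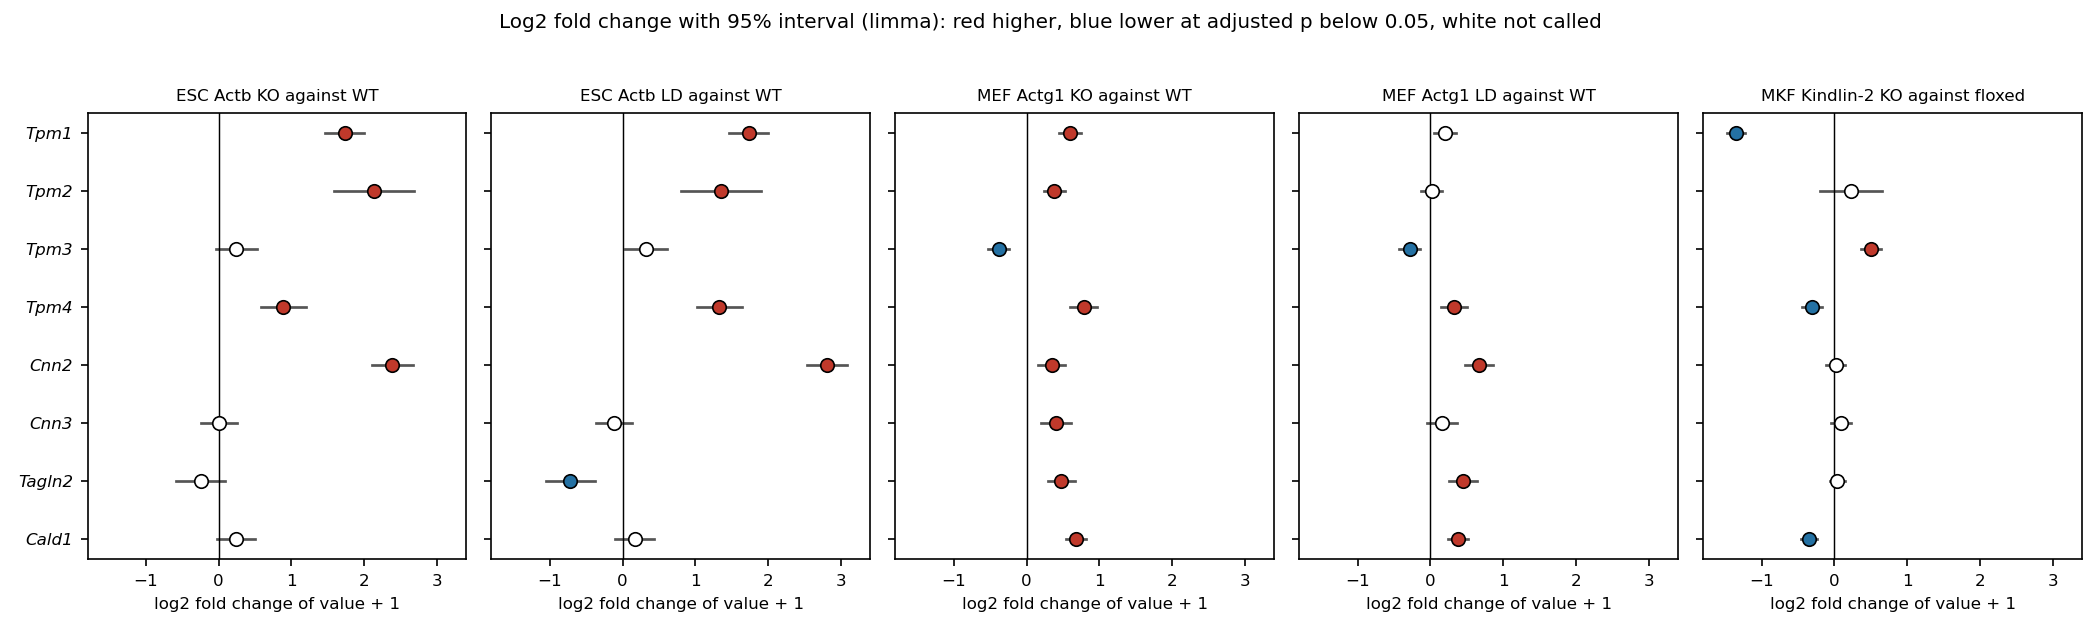
Log2 fold changes of value + 1 (points) with 95% intervals that are not adjusted for the number of genes (lines), for the 8 genes in the 5 comparisons of a mutant with its control. Red points were called higher and blue points lower at an adjusted p below 0.05, and white points were not called. Cnn2 reached 2.39 and 2.81 in the Actb mutants and 0.017 in Kindlin-2 KO MKFs, and Tpm1 ran from 1.73 in both Actb mutants to −1.35 in Kindlin-2 KO MKFs.

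In Actg1 KO MEFs, 7 of the 8 genes rose and Tpm3 fell, by at most 1.72-fold. Of all 21589 genes tested in MEFs, 39.7% were called, 20.6% higher and 19.1% lower, so calls were common. The median log2 fold change was 0.44 for the 8 genes and 0.059 for all genes tested. Set beside Actb KO ESCs, the log2 fold changes were closer to 0 for Tpm1, Tpm2, Tpm4 and Cnn2 and further from 0 for Tpm3, Cnn3, Tagln2 and Cald1, with no test of these differences. Tpm4 had 22132 and 22867 in KO MEFs, against 12741 and 13412 in WT MEFs (log2 fold change 0.78, SE 0.0774, adjusted p = 0.0001632). Cald1 had 28213 and 28694 in KO MEFs, against 17281 and 18255 in WT MEFs (log2 fold change 0.68, SE 0.0576, adjusted p = 7.886e-05). Tpm1 had 40686 and 42035 in KO MEFs, against 26760 and 28053 in WT MEFs (log2 fold change 0.59, SE 0.0650, adjusted p = 0.0002715). For these 3 genes, every KO library was above every WT library. The genes of chromosome 9, which holds Tpm1, had a median log2 fold change of −0.32, and Tpm1 was 0.91 above it. Tpm2 had 4605 and 4525 in KO MEFs, against 3381 and 3618 in WT MEFs (log2 fold change 0.38, adjusted p = 0.001647). Tpm3 had 4041 and 4025 in KO MEFs, against 5204 and 5303 in WT MEFs (log2 fold change −0.38, SE 0.0611, adjusted p = 0.001851). It was the tropomyosin that went down while the other 3 went up, with libraries of each group close together.

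The remaining genes also rose in Actg1 KO MEFs. Tagln2 had 7868 and 8107 in KO MEFs, against 5850 and 5604 in WT MEFs (log2 fold change 0.48, adjusted p = 0.002445). Cnn3 had 3485 and 3488 in KO MEFs, against 2611 and 2657 in WT MEFs (log2 fold change 0.40, adjusted p = 0.008192). Cnn2 had 5398 and 5867 in KO MEFs, against 4753 and 4133 in WT MEFs (log2 fold change 0.34, adjusted p = 0.01168). The groups were separate for all 3, with Cnn2 the closest. The calls of Tpm1, Tpm4 and Cald1 held without each library in turn, while Tpm2 was lost without KO replicate 1 (adjusted p = 0.0537), Tpm3 without either KO library (0.0572 and 0.0578), Cnn3 without any 1 (0.0838 to 0.145), and Cnn2 (0.0974 to 0.182) and Tagln2 (0.0539 to 0.0980) without any library other than WT replicate 1. Without the trend, Cnn2 (adjusted p = 0.0966) and Cnn3 (0.0780) were not called.

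In Actg1 LD MEFs, which share the WT libraries with the KO comparison, Cnn2, Tagln2, Cald1 and Tpm4 rose and Tpm3 fell. Over all genes tested 22.0% were called, 9.46% higher and 12.6% lower. The median log2 fold change of the 8 genes was 0.26, and that of all genes tested was 2.36e-16. Cnn2 had 6815 and 7246 in LD MEFs, against 4753 and 4133 in WT MEFs (log2 fold change 0.66, SE 0.0814, adjusted p = 0.001203). Tagln2 had 7199 and 8498 in LD MEFs, against 5850 and 5604 in WT MEFs (log2 fold change 0.45, adjusted p = 0.00667). Cald1 had 22944 and 23196 in LD MEFs, against 17281 and 18255 in WT MEFs (log2 fold change 0.38, adjusted p = 0.00313). Both LD libraries lay above both WT libraries for these genes, with Tagln2 the most spread in the LD group. Tpm4 had 15180 and 17506 in LD MEFs, against 12741 and 13412 in WT MEFs (log2 fold change 0.32, adjusted p = 0.02288). Tpm3 had 4121 and 4521 in LD MEFs, against 5204 and 5303 in WT MEFs (log2 fold change −0.28, adjusted p = 0.0143). Both LD libraries lay above WT for Tpm4 and below WT for Tpm3, with no overlap.

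Tpm1 had 30402 and 32569 in Actg1 LD MEFs, against 26760 and 28053 in WT MEFs. The groups were separate, and the log2 fold change of 0.20 did not pass (adjusted p = 0.06631), although it did with libraries scaled to equal protein-coding sums (0.19, adjusted p = 0.02327). Tpm2 had 3442 and 3633 in LD MEFs, against 3381 and 3618 in WT MEFs, and the groups overlapped (log2 fold change 0.016, adjusted p = 0.898). The 676 genes tested on its chromosome 4 had a median log2 fold change of −0.49, against −0.21 to 0.21 on the other autosomes, and Tpm2 was 0.51 above it. Cnn3 had 2663 and 3230 in LD MEFs, against 2611 and 2657 in WT MEFs (log2 fold change 0.16, adjusted p = 0.2667), with 1 LD library at the level of WT. Leaving out that library, LD replicate 1, gave a call for Cnn3 (adjusted p = 0.02556). Cnn2 and Cald1 were called without any 1 library, while Tpm3 (0.0956 and 0.111) and Tagln2 (0.0833 and 0.105) were lost without WT replicate 1 or 2, and Tpm4 held only without LD replicate 1 (0.0196, otherwise 0.0682 to 0.180). Without the trend, only Cnn2 of the 8 was called (Tpm3 0.138, Tpm4 0.156, Tagln2 0.0926, Cald1 0.0698), and with only the 4 libraries compared Tpm3 (0.0628) and Tpm4 (0.0893) were not called.

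The Actg1 KO and Actg1 LD MEFs differed from each other at 5 of the 8 genes, in a table where 45.2% of all genes tested were called between them, 24.5% higher in KO and 20.7% lower in KO. Tpm4 averaged 22499.5 ± 520 in KO and 16343 ± 1645 in LD MEFs (SD, n = 2 each), a log2 difference of 0.46 (adjusted p = 0.001864). Tpm1 averaged 41360.5 ± 954 in KO and 31485.5 ± 1532 in LD MEFs (log2 difference 0.39, adjusted p = 0.001774). Tpm2 averaged 4565 ± 56.6 in KO and 3537.5 ± 135 in LD MEFs (log2 difference 0.37, adjusted p = 0.001689). The genes of chromosome 4 had a median log2 difference of 0.59, against at most 0.28 on any other autosome, and Tpm2 minus the median of its chromosome was −0.22. For Tpm1, the median of chromosome 9 was −0.29, and Tpm1 was 0.68 above it. These 3 tropomyosins and Cald1, with 28453.5 ± 340 in KO and 23070 ± 178 in LD MEFs (log2 difference 0.30, adjusted p = 0.00366), were higher in the KO. Cnn2 was lower in the KO, with 5632.5 ± 332 in KO and 7030.5 ± 305 in LD MEFs (log2 difference −0.32, adjusted p = 0.01401). Tagln2 gave a log2 difference of 0.030 (95% interval −0.16 to 0.22, adjusted p = 0.79) and Tpm3 one of −0.098 (−0.24 to 0.04, adjusted p = 0.2319). Cnn3 gave 0.25 (adjusted p = 0.05172), which passed with a replicate block (0.0466), a pseudocount of 5 (0.0400), a mean of at least 10 (0.0237) and either other scaling (0.0372 and 0.0027). Tpm2 was called without any 1 library, Tpm1 (0.0578 and 0.0713), Tpm4 (0.0697 and 0.0828) and Cald1 (0.0624 and 0.0719) were lost without KO replicate 1 or 2, and Cnn2 without any 1 (0.0636 to 0.193). Without the trend, Cnn2 (0.102) and Cald1 (0.0549) were not called, and without LD replicate 1 Tpm3 was (0.0401), as was Cnn3 without LD replicate 2 (0.0052).

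Markers of cell type differed between the MEF groups as well. Fibroblast markers, all 9 measured, summed to 146332 to 153355 in Actg1 KO, 34306 to 34862 in Actg1 LD and 36367 to 39733 in WT MEFs. Most of the KO sum was Col1a1, with 84930 and 91165 in KO, 16507 and 15657 in LD, and 15137 and 13197 in WT MEFs. Dcn, a matrix proteoglycan, had 8037 and 7653 in KO, 12 and 5 in LD, and 17 and 14 in WT MEFs. Of the 9, 5 were called higher and 1 lower in KO against WT by limma, beside 20.6% and 19.1% of all genes tested. Pdgfrb (1332 and 1374 in KO, 2282 and 2174 in WT) and Twist1 (1289 and 1386 in KO, 1487 and 1469 in WT) were lower in KO MEFs. Smooth muscle markers, all 7 measured, summed to 29930 to 32336 in KO, 56943 to 60135 in LD and 18341 to 18690 in WT MEFs, most of it Acta2. Myh11 had 35 and 18 in KO, 39 and 40 in LD, and 22 and 29 in WT MEFs. Sox2, a gene of stem and neural cells, had 1326 and 1306 in KO, 0 and 0 in LD, and 44 and 32 in WT MEFs. Of the other markers of pluripotent cells, Nanog had 18 and 15 in KO, 1 and 5 in LD, and 4 and 2 in WT MEFs. The rest (Pou5f1, Zfp42, Esrrb, Dppa5a and Tdgf1) were not listed for MEFs. Macrophage markers, 4 of 5 measured, summed to 101 to 132 in KO, 53 to 55 in LD and 44 to 60 in WT MEFs. Endothelium markers, all 4 measured, summed to 82 to 97 in KO, 25 to 27 in LD and 111 to 116 in WT MEFs. Most of the WT sum was Kdr, with 19 and 25 in KO, 7 and 9 in LD, and 96 and 92 in WT MEFs. Tek, Pecam1 and Cdh5 were higher in both KO libraries than in WT, with Tek at 37 and 35 in KO and 4 and 6 in WT MEFs. The part of these differences in the results for the 8 genes was not tested.

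In Kindlin-2 KO MKFs, Tpm1, Tpm4 and Cald1 fell and Tpm3 rose, while the calponins, Tagln2 and Tpm2 did not pass. This comparison called 49.2% of all 18288 genes tested, 24.3% higher and 24.9% lower, against 1 higher and 3 lower among the 8. The median log2 fold change was 0.028 for the 8 genes and 0.014 for all genes tested. Tpm1 had 8247 and 8465 in KO MKFs, against 20535 and 22152 in floxed MKFs (log2 fold change −1.35, SE 0.0479, adjusted p = 1e-04). Both KO libraries were at about 0.39 of the floxed mean, far outside the spread of either group. The 586 genes tested on its chromosome 9 had a median of −0.46, against −0.38 to 0.69 on the other autosomes, and the log2 fold change of Tpm1 minus that median was −0.89. Cald1 had 9499 and 9126 in KO MKFs, against 11534 and 12162 in floxed MKFs (log2 fold change −0.35, SE 0.0432, adjusted p = 0.002796), and chromosome 6, which holds it, had a median of −0.26, so that it differed from that median by −0.087. Tpm4 had 8540 and 7889 in KO MKFs, against 9888 and 10378 in floxed MKFs (log2 fold change −0.30, SE 0.0528, adjusted p = 0.008333). The KO libraries were below the floxed libraries in both cases. Tpm3 had 4870 and 4696 in KO MKFs, against 3239 and 3502 in floxed MKFs (log2 fold change 0.51, SE 0.0515, adjusted p = 0.001461). It went up where Tpm1 and Tpm4 went down, again with separate groups.

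Tpm2 was barely present in the kidney cells, with 46 and 42 in Kindlin-2 KO MKFs, against 39 and 36 in floxed MKFs (log2 fold change 0.22, adjusted p = 0.3106). Cnn2 had 1063 and 1002 in KO MKFs, against 1029 and 1011 in floxed MKFs, and the groups overlapped (log2 fold change 0.017, 95% interval −0.11 to 0.15, adjusted p = 0.8044). Cnn3 had 3264 and 3113 in KO MKFs, against 2875 and 3113 in floxed MKFs (log2 fold change 0.092, adjusted p = 0.2257). Tagln2 had 2385 and 2376 in KO MKFs, against 2268 and 2368 in floxed MKFs (log2 fold change 0.039, adjusted p = 0.4709). These 4 genes thus gave log2 fold changes between 0.017 and 0.22, none of which passed. Tpm1 was called without any 1 library (adjusted p 0.0388 to 0.0451), while Tpm3 (0.0524 to 0.0858), Cald1 (0.0668 to 0.0906) and Tpm4 (0.0745 to 0.159) were not called without any 1, nor Tpm4 without the trend (0.0700).

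Markers of kidney epithelium, all 6 measured, summed to 24598 to 24922 in Kindlin-2 KO MKFs and 5599 to 5884 in floxed MKFs. Epcam, an epithelial adhesion molecule, had 3430 and 3401 in KO and 26 and 11 in floxed MKFs, and Cdh1, the gene of E-cadherin, 1399 and 1531 in KO and 10 and 16 in floxed MKFs. Smooth muscle markers, all 7 measured, summed to 4201 to 4747 in KO and 2052 to 2089 in floxed MKFs, nearly all of it Smtn. Of the 7, 1 was called higher and 2 lower by limma, with a median log2 fold change of −1.06. Of all genes tested, 24.3% were called higher and 24.9% lower. Acta2 had 4 and 3 in KO and 43 and 42 in floxed MKFs. Cnn1 had 1 and 3 in KO and 6 and 8 in floxed MKFs. Macrophage markers, 3 of 5 measured, summed to 245 to 264 in KO and 162 to 164 in floxed MKFs. Cnn2 lies on chromosome 10, with a median of −0.38, and Tpm3 on chromosome 3, with a median of 0.041. The part of these markers and chromosome medians in the fall of Tpm1 or the rise of Tpm3 was not tested.

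The proportions of the 4 tropomyosin genes differed between the groups, described as the share of each gene in the summed value per kb of the 4, with no test. The lengths are the merged exon lengths given above, so the size of a share beside that of another gene depends on them. In Actb KO ESCs Tpm1 made up 24.0% ± 0.541, in Actb LD ESCs 20.4% ± 2.05 and in WT ESCs 13.5% ± 0.340 (SD, n = 2 each, here and below). Tpm3 made up 20.8% ± 2.02 in KO, 18.7% ± 2.76 in LD and 32.9% ± 2.07 in WT ESCs. The shares of both genes were separate between each mutant and WT, while the share of Tpm4 overlapped between KO and WT, with 51.2% ± 2.89 in KO, 59.0% ± 5.16 in LD and 51.9% ± 2.05 in WT ESCs. The summed value per kb was 2993 and 2767 in KO, 3362 and 3446 in LD, and 1664 and 1417 in WT ESCs. The value of Tpm3 itself was not lower in either Actb mutant (log2 fold change 0.24 in KO and 0.33 in LD, neither called). Its share fell as the sum rose. In MEFs the sum was 18567 and 19079 in Actg1 KO, 13439 and 14960 in Actg1 LD, and 11927 and 12529 in WT. Tpm3 made up 3.52% ± 0.0776 in KO, 5.0% ± 0.0517 in LD and 7.06% ± 0.152 in WT MEFs, so its share differed between all 3 groups by more than their spread. Its own value was not called between KO and LD. The share of Tpm1 stayed between 33.6% and 34.9% in all 6 MEF libraries. In MKFs the sum was 5964 and 5673 in Kindlin-2 KO, against 8201 and 8715 in floxed cells. There Tpm1 made up 22.2% ± 1.19 in KO and 38.9% ± 0.414 in floxed cells, Tpm3 13.5% ± 0.132 in KO and 6.55% ± 0.0800 in floxed cells, and Tpm4 64.1% ± 1.32 in KO and 54.4% ± 0.478 in floxed cells.

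**Figure D3:**
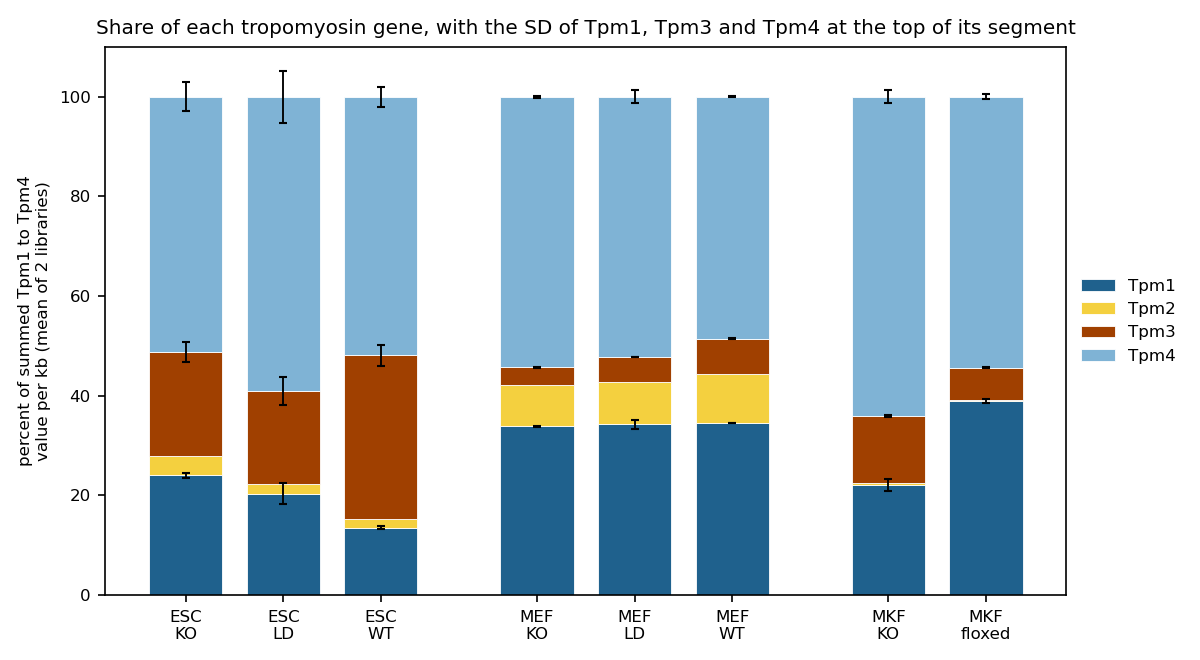
Share of each tropomyosin gene in the summed value per kb of Tpm1 to Tpm4 (vertical axis, percent), as the mean of 2 libraries in each group, with mutants left of their control. Error bars are the SD of Tpm1, Tpm3 and Tpm4. Lengths are the merged exons of all annotated transcripts, so the size of a segment beside that of another gene depends on them. The segment of Tpm3 was 20.8% and 18.7% in the Actb mutants, against 32.9% in WT ESCs, and 13.5% in Kindlin-2 KO MKFs, against 6.55% in floxed MKFs. In the Actb mutants the value of Tpm3 itself was not lower than in WT.

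Other calponin-family genes (Cnn1, Tagln, Tagln3, Smtn, Smtnl1 and Smtnl2) were all measured in ESCs, and 4 of them in MEFs and in MKFs. In the comparisons with a control, 1 of 6 was called in each Actb mutant, and 2 of 4 in each Actg1 mutant and in Kindlin-2 KO MKFs. The share of all genes called was 4.88% in Actb KO, 11.2% in Actb LD, 39.7% in Actg1 KO, 22.0% in Actg1 LD and 49.2% in Kindlin-2 KO. These shares also stand beside the counts of the gene lists that follow. Cnn1, the calponin of smooth muscle, had 36 and 28 in Actb KO ESCs, against 7 and 9 in WT ESCs (log2 fold change 1.87, adjusted p = 0.03153), the call in that mutant. In Actb LD ESCs only Smtn, a smoothelin, was called, with 449 and 624, against 321 and 307 in WT ESCs (0.75, adjusted p = 0.02238). Cnn1 had 9 and 7 in LD ESCs. In MEFs, Cnn1 had 2158 and 2191 in Actg1 KO, 1207 and 1214 in Actg1 LD, and 513 and 502 in WT, and rose in both mutants (2.10, adjusted p = 8.555e-07, in KO and 1.25, adjusted p = 2.113e-05, in LD). Smtn fell in Actg1 KO MEFs and rose in Actg1 LD MEFs, with 979 and 1056 in KO, 2386 and 2425 in LD, and 1845 and 1677 in WT. In Kindlin-2 KO MKFs, Smtn rose, with 4169 and 4718 in KO against 1960 and 1982 in floxed cells, and Tagln fell, with 1 and 2 in KO against 13 and 18 in floxed cells.

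Tropomodulins and leiomodins bind tropomyosin at the slow-growing end of the filament. Of 5 measured in ESCs, 0 were called in Actb KO by limma. An unadjusted p below 0.05 was found for 2 of them and for 4662 of all 23054 genes tested. In Actb LD 1 was called, Lmod1, with 64 and 118, against 25 and 20 in WT ESCs (log2 fold change 1.91, adjusted p = 0.007795). Of 5 measured in MEFs, Lmod1 rose in both mutants, with 152 and 130 in Actg1 KO, 582 and 650 in Actg1 LD, and 56 and 58 in WT. Tmod3, the widely expressed tropomodulin, fell in both, with 2599 and 2800 in KO, 2754 and 3119 in LD, and 3528 and 3638 in WT. In MKFs 2 of 5 fell and 0 rose, with Tmod3 at 978 and 887 in Kindlin-2 KO, against 1514 and 1677 in floxed cells, and Tmod2 at 9 and 6 in KO, against 135 and 108 in floxed cells. Troponins, which pair with tropomyosin in striated muscle, were low, at no more than 252 in any library. In ESCs 0 of 5 were called in either Actb mutant by limma, and 0 had an unadjusted p below 0.05. Tnnt2, troponin T of the heart, rose in both MEF mutants, with 156 and 155 in Actg1 KO, 141 and 103 in Actg1 LD, and 58 and 67 in WT. In MKFs Tnnc1 and Tnni2 rose and Tnnt2 fell.

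Other proteins that bind along filaments or link them, 21 genes such as palladin, the PDZ-LIM proteins and drebrin, split between the directions. In Actb KO ESCs 2 of 21 rose and 1 fell, with a median log2 fold change of 0.16, and in Actb LD ESCs 4 rose and 2 fell, with a median of −0.014. Pdlim7, a PDZ-LIM adaptor, had 484 and 461 in Actb KO, 390 and 430 in Actb LD, and 152 and 124 in WT ESCs, and rose in both mutants. Ablim1, an actin-binding LIM protein, fell in both, with 169 and 154 in KO, 191 and 205 in LD, and 379 and 402 in WT ESCs. In MEFs 9 of 18 rose and 6 fell in Actg1 KO, and 7 rose and 6 fell in Actg1 LD. In Kindlin-2 KO MKFs 5 of 20 rose and 8 fell, among them Palld (palladin), with 417 and 427 in KO, against 2234 and 2231 in floxed cells (log2 fold change −2.40, adjusted p = 3.754e-05).

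The gene of SRF itself rose in both Actb mutants, with 711 and 640 in KO, 883 and 945 in LD, and 321 and 262 in WT ESCs (log2 fold change 1.22, adjusted p = 0.003225, in KO and 1.65, adjusted p = 0.0004146, in LD). It fell in Actg1 KO MEFs and rose in Actg1 LD MEFs, with 1568 and 1660 in KO, 3794 and 4099 in LD, and 2142 and 1919 in WT. Its coactivator genes Mrtfa and Mrtfb both fell in Actg1 KO MEFs, with Mrtfb at 1367 and 1406 in KO, against 2634 and 2442 in WT. Tpm1 and Tpm4 were higher than in WT in Actg1 KO MEFs, where Srf was lower than in WT. Cnn2 and Srf were both at their highest of the 3 MEF groups in Actg1 LD. The activity of SRF was not measured, and its part in the values of Tpm1, Tpm4 and Cnn2 was not tested. Of 29 other SRF and MRTF targets measured, a list that holds the targeted actin genes, 16 rose and 1 fell in Actb KO ESCs, 15 rose and 2 fell in Actb LD ESCs, 13 rose and 7 fell in Actg1 KO MEFs, and 19 rose and 2 fell in Actg1 LD MEFs. In Kindlin-2 KO MKFs 9 of 28 rose and 10 fell. The share of all genes called higher was 2.44% in Actb KO, 5.19% in Actb LD, 20.6% in Actg1 KO, 9.46% in Actg1 LD and 24.3% in Kindlin-2 KO.

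Across the 16 libraries, the 8 genes fell into different patterns. The description used log2(value + 1) minus the mean of the control libraries of the same table, over 8665 protein-coding genes with a mean of at least 50 in each table (8666 for Tpm2, itself below that mean in MKFs), with Pearson correlations given without a test. The points share tables and control groups, so they are not independent. Among the members, Tpm1 and Tpm4 were most alike (r = 0.913), followed by Tpm2 and Cnn2 (0.883), Tpm4 and Cnn2 (0.867) and Tpm1 and Cnn2 (0.858). Tpm3 ran against Cald1 (−0.688) and Tagln2 (−0.671). Of all the genes compared, the 1 most like Cnn2 was Flna, the gene of the filament cross-linker filamin A (r = 0.998), ahead of Zyx (0.975), the gene of the adhesion protein zyxin. Flna had 20595 and 19868 in Actb KO, 28310 and 24887 in Actb LD, and 5182 and 5043 in WT ESCs. It had 51904 and 54422 in Actg1 KO, 61208 and 63677 in Actg1 LD, and 48463 and 42114 in WT MEFs, and 19792 and 21058 in Kindlin-2 KO, against 19395 and 18988 in floxed MKFs. The order of its group means was that of Cnn2 in each table. The 4 Actb mutant libraries lie far from the other libraries in both genes, so this r describes mostly the distance between those 2 clusters.

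The genes most like the other members were Eny2 for Tpm1 (r = 0.985), Supt6 for Tpm2 (0.964), Atp6v1d for Tpm3 (0.972), Mtr for Tpm4 (0.968), Chmp2a for Cnn3 (0.952), Guf1 for Tagln2 (0.957) and Rheb for Cald1 (0.961). Myl6, a light chain of non-muscle myosin, was next for Tpm1 (0.97), and Actn4, the filament cross-linker alpha-actinin-4, for Tpm2 (0.952). Over so few groups, correlations of this size arose for every member.

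**Figure D4:**
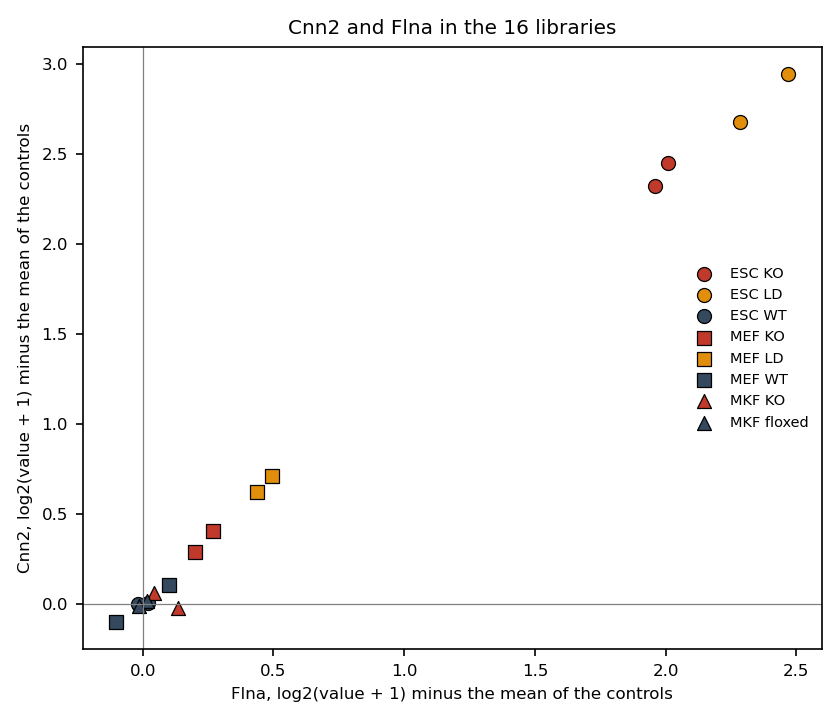
Cnn2 (vertical axis) against Flna (horizontal axis) in the 16 libraries, each as log2(value + 1) minus the mean of the control libraries of its table. Points are libraries, marked by group. The Actb mutants lie at the upper right, the Actg1 mutants between, and the Kindlin-2 KO libraries beside the controls.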

How the data were processed

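RNA sequencing libraries of 3 mouse cell types were analysed from 3 deposited tables, 1 for each cell type. Per the submitters' processing notes, the tools named were STAR 2.5.3a, Subread featureCounts 1.6.0, FastQC and DESeq2 1.14.1, with build mm10. The deposited values are treated as a score: normalised read counts that the authors rounded to whole numbers, so no count model was run, and the number of reads per library is unknown. Depth limits genes such as Tpm2 in MKFs, where values were 36 to 46. The strand setting of the counting is not given in the sources used here.

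Each table was fitted alone with limma 3.58.1 (R 4.3.3) on log2(value + 1), with 1 mean for each group over all libraries of the table, moderation with a trend, and Benjamini-Hochberg adjustment over all genes with a mean of at least 1. A fold change on this scale understates the change of low genes, and intervals are 95% and not adjusted. Genes were called at an adjusted p below 0.05. On simulated data for Actb KO against WT, 90% of 100 genes changed 2-fold and 54% of 100 changed 1.5-fold were called. Lengths and gene types came from GENCODE M21, where 23045, 21573 and 18257 genes of the ESC, MEF and MKF tables were found. The genes named are the 8 members, the targeted genes, at most 4 called genes with the largest changes from each list in a comparison, near-copies of members, and the 3 genes most like each member. Myh11, Pax8, Mrtfa, some other cell type markers and the genes that share sequence or exons with Tpm4 and Cnn3 were added after their values were seen. The members and lists were chosen with earlier results of these data known.

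The 2 libraries of each group differed by more than sampling noise would give, and all were kept. Same-numbered ESC libraries deviated together (r = 0.678, 0.349 and 0.492 over 11369 genes), so the numbers may pair ESC libraries, which the labels do not state. The main fit left this pairing out, and the replicate block was run only as an alternative. Alternatives were other pseudocounts (0.5 and 5), filters and scalings, a replicate block, no trend, only the 4 libraries compared, and leaving out each library.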

Additional observations from a re-analysis of the deposited data

Results flagged for a closer look

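The Actg1 KO and the Actg1 locus deletion, each set against the same WT MEFs, differed at 5 of the 8 genes by limma's test of the difference itself, with Benjamini-Hochberg adjustment over all genes. The log2 difference of KO minus LD was 0.394218 for Tpm1 (adjusted p = 0.001774), 0.368263 for Tpm2 (0.001689), 0.464665 for Tpm4 (0.001864) and 0.302546 for Cald1 (0.00366). It was −0.320374 for Cnn2 (adjusted p = 0.01401), where the KO libraries were the lower ones. Tpm2 lies on chromosome 4, whose 676 genes tested had a median log2 difference of 0.59, so that Tpm2 minus that median was −0.22. The part of the chromosome in the value of Tpm2 was not tested. Of all genes tested, 45.2% were called in this difference.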

How the results depend on the processing

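No called value of the 8 genes changed direction under any alternative run. In Actb KO ESCs, the members called were 2 without the trend, and the genes called were 1850 with a replicate block, 152 without the trend and 272 with only the 4 libraries compared. In Actb LD ESCs they were 2 members and 567 genes without the trend, and 3 members and 876 genes with only 4 libraries. Between Actb KO and LD they were 2 members and 1735 genes with a replicate block, 58 genes without the trend and 214 with only 4 libraries. In Actg1 LD MEFs they were 1 member and 2082 genes without the trend, and 3 members and 2986 genes with only 4 libraries. Between Actg1 KO and LD, 3 members were called without the trend. The block changed no other call of a member except that of Cnn3 between Actg1 KO and LD. MEF and MKF numbers did not pair (r = −0.211, −0.302 and 0.214, and −0.0952), and the block gave 8159, 4253 and 9421 genes in the MEF comparisons (KO, LD, KO against LD) and 7496 in MKFs.

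Leaving out 1 library at a time gave 0 to 1 members and 0 to 18 genes in Actb KO, 2 to 3 and 58 to 370 in Actb LD, 0 to 0 and 1 to 30 between them, 3 to 7 and 4384 to 5879 in Actg1 KO, 2 to 6 and 1803 to 3321 in Actg1 LD, 1 to 5 and 5759 to 8205 between them, and 1 to 1 and 2112 to 3834 in Kindlin-2 KO. A group then rests on 1 library, assumed to vary like the others. Values that were not called turned sign for Cnn3 in Actb KO (−0.054 with equal protein-coding sums, −0.0717 to 0.082 without 1 library), between Actb KO and LD for Tpm1 (−0.12 to 0.119), Tpm3 (−0.25 to 0.088) and Cald1 (−0.011 to 0.17), for Tpm2 in Actg1 LD (−0.0330 to 0.065), for Tagln2 between Actg1 KO and LD (−0.090 to 0.15) and for Cnn2 in Kindlin-2 KO (−0.026 to 0.060). The cause was not tested. With 2 libraries in each group, small differences could not be told from the spread.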
